A study of Drosophila melanogaster with 10 samples.

Results

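The genes described here encode the small subunit of the mitochondrial ribosome of Drosophila melanogaster, read in cells in which the transcript of MBD-R2 was targeted by RNA interference. Members were the genes whose annotated symbol was mRpS followed by a digit, together with tko and bonsai, which encode small subunit proteins under older names. Where a gene had more than 1 probe set, the one with the brightest average signal stood for it. The rule gave 27 genes on 28 probe sets, of 11981 genes with a probe set of their own, and mRpS11 was the gene with a second probe set. All 27 passed the filter on low signal (an average of 4 or more in log2 units over the 10 arrays), which left 5906 genes to be tested.

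The cells were SL2 cells, an established male line derived from fly embryos. Double-stranded RNA (dsRNA) against 1 of 2 stretches of the MBD-R2 transcript, called M1 and M2, was given to 3 samples each. A dsRNA against GST, the control treatment, was given to 3 samples, and 1 sample received no dsRNA. Treated cells were incubated with 10 µg of dsRNA for 1 h in serum-free medium, cells were collected after 7 days at 26 °C, and RNA of each sample was hybridised to 1 Affymetrix array. The label of the series concerns MOF, a histone acetyltransferase, and MBD-R2 is known as a subunit of the NSL complex, in which MOF also sits and which binds many promoters of active genes. The level of MBD-R2 itself was not analysed here, so the labelled knockdown is taken from the labels, and its extent is not given.

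Mitochondria carry their own ribosome, which translates the few proteins encoded by mitochondrial DNA, all of them parts of the respiratory chain or of the ATP synthase. Its ribosomal RNAs come from mitochondrial DNA, but its proteins are encoded in the nucleus, made in the cytosol and imported. The small subunit binds the messenger RNA and decodes it. Some of its proteins descend from those of the bacterial ribosome, and others are found in mitochondria alone.

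Each array was summarised by the authors as 1 log2 expression value per probe set, so a difference of 1 is a factor of 2 in signal. The lowest value in the table was 2.22 and the highest 16.50, and between 50.6% and 53.2% of probe sets on an array lay within 0.1 of the lowest. Of the haemocyte genes, srp lay between 11.85 and 12.60 and Pxn between 12.91 and 14.49, while lz, a gene of another haemocyte class, averaged 4.18 with M1 and 4.13 with M2, against 6.86 without dsRNA and 3.88 with GST. The male gene msl-2 lay between 8.08 and 9.71. The glial gene repo, the fat body genes Lsp2 and Fbp1 and the germ line gene vas stayed at or below 2.54. The germ line gene bam averaged 3.01 with M1 and 3.02 with M2, against 2.32 without dsRNA and 2.25 with GST. The neuronal gene elav lay between 5.84 and 8.85. It averaged 7.64 with M1 and 7.73 with M2, against 7.21 without dsRNA and 6.63 with GST. The haemocyte gene NimC1 averaged 11.48 with M1 and 11.37 with M2, against 8.97 without dsRNA and 9.22 with GST. Pxn averaged 13.73 with M1 and 13.62 with M2, against 14.32 without dsRNA and 14.26 with GST. In the same order, the haemocyte gene Hml averaged 13.62, 13.62, 13.57 and 13.72, and He averaged 13.04, 12.95, 12.59 and 12.95. Of the other haemocyte genes, crq averaged 10.40, 10.74, 10.37 and 10.13. For ush the averages were 11.26, 11.20, 11.12 and 10.91, and for srp 12.18, 12.40, 12.26 and 12.25. Whether these differences have a part in the results below was not tested. The third replicates stood apart from replicates 1 and 2 in every dsRNA group, as described further on. The spike-in control probe sets, for added RNAs of known amount, were those of bioB, bioC, bioD and cre, read after the authors' normalisation. Whether they follow the amount of cell RNA was not tested. Among these probe sets GST replicate 2 had a median of 13.12, while the other GST arrays had 10.66 and 10.84. M1 replicate 1 had 12.33, while the other M1 arrays had 11.22 and 11.09.

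Most of the small subunit genes were lower after knockdown of MBD-R2. Against GST, 19 of the 27 genes were lower for both constructs averaged at an adjusted p under 0.05 in limma, none was higher, and 8 did not pass. Over all genes tested, 19.9% were lower and 7.38% were higher. The median log2 fold change of the 27 genes was -0.91, or 53.4% of the GST signal remaining, against -0.07 over all genes tested. Of the 19 genes that fell, 12 fell by more than 2-fold, and of the 5906 genes tested 773 did so at the same threshold. In RNA from whole cultures, fewer cells that express a gene and less RNA per cell cannot be told apart.

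The separation was also visible without a model. For 19 of the 27 genes every M1 and M2 array read below every GST array, against 24.6% of all genes. These were all the genes that fell except tko, together with mRpS29. In the same 19 genes the knockdown arrays also all lay below the array without dsRNA, and 23.7% of all genes were separated from the 4 arrays in this way.

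**Figure D1:**
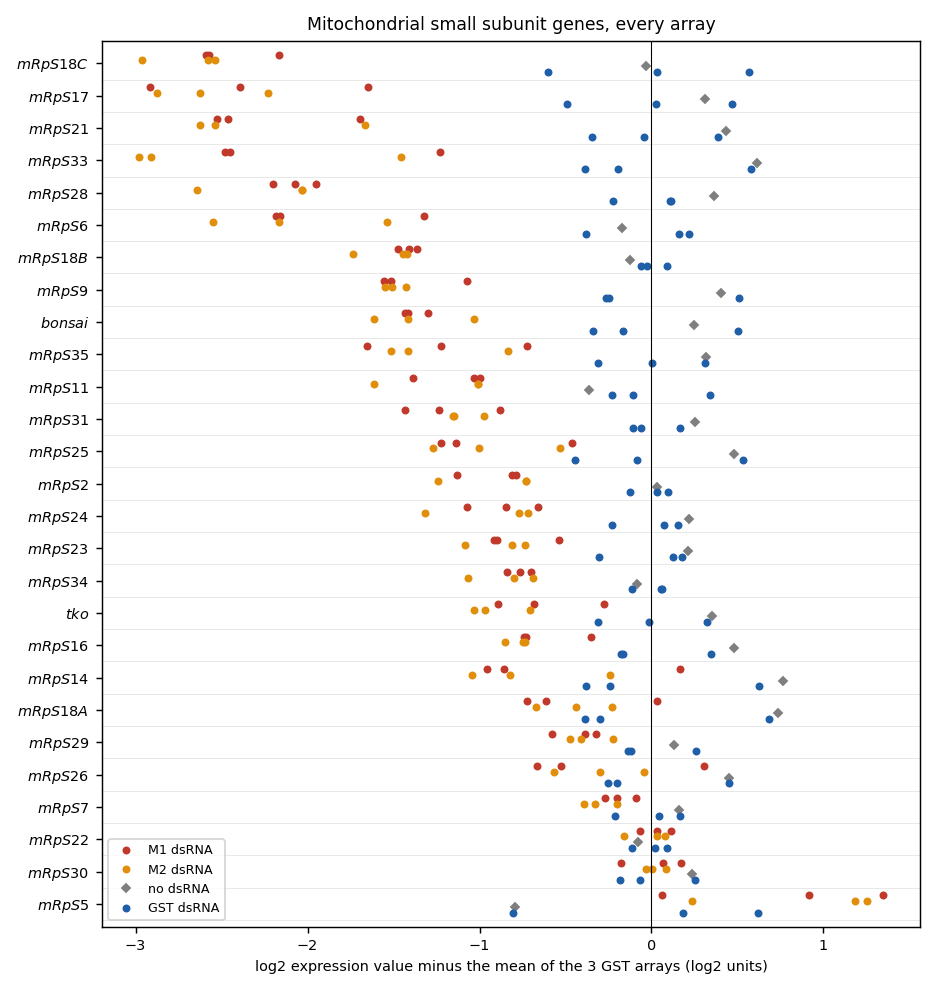
Log2 expression value of each small subunit gene on each of the 10 arrays, given as the difference from the mean of the 3 GST arrays (x axis, log2 units), with 1 row per gene ordered by the combined fold change. Points are single arrays, circles for M1, M2 and GST and diamonds for the array without dsRNA. The upper rows show every knockdown array to the left of every GST array, and the lowest rows show them mixed or, for mRpS5, mostly to the right.

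The proteins of bacterial descent made up 15 of the genes, and 12 of them fell, with a median log2 fold change of -1.18. The gene that moved most was mRpS18C, the counterpart of bacterial S18, which in bacteria sits on the platform of the small subunit as a pair with S6. It read 4.73, 4.71 and 5.14 on the M1 arrays and 4.73, 4.34 and 4.77 on the M2 arrays, against 7.27 without dsRNA and 6.70, 7.87 and 7.34 on the GST arrays. All 6 knockdown arrays lay well below the other 4, and 16.8% of the GST signal remained. The log2 fold change was -2.57 ± 0.26 (SE; limma, adjusted p = 0.000266). The gene for its bacterial partner, mRpS6, read 4.24, 4.26 and 5.10 with M1 and 4.26, 3.87 and 4.89 with M2, against 6.26 without dsRNA and 6.05, 6.65 and 6.59 with GST. Here too the groups did not overlap, and the third knockdown arrays were the highest of their groups. Its log2 fold change was -1.99 ± 0.29 (limma, adjusted p = 0.00172).

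mRpS17, the counterpart of S17, which in bacteria binds the ribosomal RNA early in assembly, read 6.26, 5.74 and 7.00 with M1 and 5.78, 6.03 and 6.42 with M2. The array without dsRNA gave 8.96, and the GST arrays gave 8.16, 8.68 and 9.12. The highest knockdown array, M1 replicate 3, was still more than 1 log2 unit below the lowest GST array, and 18.3% of the GST signal remained (log2 fold change -2.45 ± 0.32, limma, adjusted p = 0.000938). mRpS21, the counterpart of S21 of the platform, read 8.41, 8.35 and 9.18 with M1 and 8.25, 8.34 and 9.21 with M2, against 11.31 without dsRNA and 10.53, 10.84 and 11.27 with GST. In all 3 dsRNA groups replicate 3 was the highest, yet no knockdown array reached a GST array (log2 fold change -2.25 ± 0.30, limma, adjusted p = 0.00101). mRpS28, which is related to part of bacterial S1, a protein that holds messenger RNA, read 6.12, 5.99 and 6.24 with M1, 6.16, 6.16 and 5.55 with M2, 8.56 without dsRNA and 7.97, 8.31 and 8.30 with GST. Its arrays were tight within groups, apart from the lower M2 replicate 3, and it had the smallest adjusted p of the 27 genes (log2 fold change -2.16 ± 0.18, limma, adjusted p = 0.000114).

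bonsai encodes the counterpart of S15, and fly mutants of it stay small. It read 7.94, 8.06 and 7.93 with M1 and 7.94, 8.33 and 7.75 with M2, against 9.61 without dsRNA and 9.19, 9.02 and 9.86 with GST. The knockdown arrays were close to each other, while GST replicate 3 lay above the other GST arrays (log2 fold change -1.37 ± 0.22, limma, adjusted p = 0.00247). tko encodes the counterpart of S12, a protein of the decoding centre, and fly mutants of it have seizures when shaken. It read 9.10, 8.89 and 9.51 with M1 and 8.82, 8.75 and 9.08 with M2, against 10.14 without dsRNA and 9.47, 9.77 and 10.11 with GST. M1 replicate 3 exceeded GST replicate 1, so the groups overlapped by that pair of arrays. The log2 fold change of tko was -0.76 ± 0.20 (limma, adjusted p = 0.0237), which lost its call in limma without any 1 of 6 arrays (GST replicates 2 and 3, M1 replicates 1 and 2, M2 replicates 1 and 2), with adjusted p between 0.0502 and 0.0844.

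The other bacterial-type genes that fell lay between -0.69 and -1.44 on the log2 scale. mRpS9, whose bacterial counterpart reaches towards the transfer RNA in the middle site, averaged 8.22 ± 0.27 with M1 and 8.10 ± 0.06 with M2, against 9.60 ± 0.44 with GST (SD, n = 3 each), a log2 fold change of -1.44. mRpS11, a platform protein, averaged 8.53 ± 0.22 with M1 and 8.46 ± 0.35 with M2, against 9.67 ± 0.30 with GST, a log2 fold change of -1.18, and its second probe set gave -1.17 ± 0.34. The 2 probe sets of mRpS11 thus moved alike. mRpS2 averaged 7.05 ± 0.19 with M1 and 7.06 ± 0.30 with M2, against 7.96 ± 0.11 with GST. mRpS24, the counterpart of S3 at the entry of the messenger RNA channel, averaged 6.33 ± 0.21 with M1 and 6.26 ± 0.33 with M2, against 7.19 ± 0.20 with GST. Both of these fell by about the median of the set, with log2 fold changes of -0.91 and -0.90. mRpS16, whose human counterpart is mutated in a respiratory chain disease, read 8.61, 8.60 and 8.98 with M1, 8.49, 8.60 and 8.59 with M2, 9.82 without dsRNA and 9.16, 9.17 and 9.68 with GST. No knockdown array reached a GST array, although M1 replicate 3 came close (log2 fold change -0.69 ± 0.17, limma, adjusted p = 0.0178, and 0.0507 without GST replicate 3). A further probe set, annotated to mRpS10 and to CG34316 together and therefore not counted among the 27, had a log2 fold change of -1.28 ± 0.22.

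Of the 15 genes of bacterial descent, 3 did not pass the test. mRpS7, whose bacterial counterpart starts the assembly of the head of the subunit, averaged 10.74 ± 0.09 with M1 and 10.62 ± 0.10 with M2, against 10.93 ± 0.19 with GST, a log2 fold change of -0.25. mRpS14 averaged 6.77 ± 0.62 with M1 and 6.61 ± 0.42 with M2, against 7.31 ± 0.55 with GST, a log2 fold change of -0.63 ± 0.34 (limma, adjusted p = 0.232). mRpS5, which lies at the entry of the messenger RNA channel, had the highest fold change of all members at 0.83 ± 0.41 (limma, adjusted p = 0.187). Its value on every array is given here because of that position, chosen after its values were seen. mRpS5 read 11.05, 11.48 and 10.20 with M1 and 11.32, 11.39 and 10.38 with M2, against 9.34 without dsRNA and 10.76, 10.32 and 9.33 with GST. Within replicates 1 and 2 all 4 knockdown arrays were above both GST arrays, and in replicate 3 both knockdown arrays were above the GST array, but the third arrays of all groups were about 1 unit lower than the others. With the replicate number as a block, mRpS5 was higher (limma, adjusted p = 0.00466) and mRpS14 was lower (limma, adjusted p = 0.00388).

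**Figure D2:**
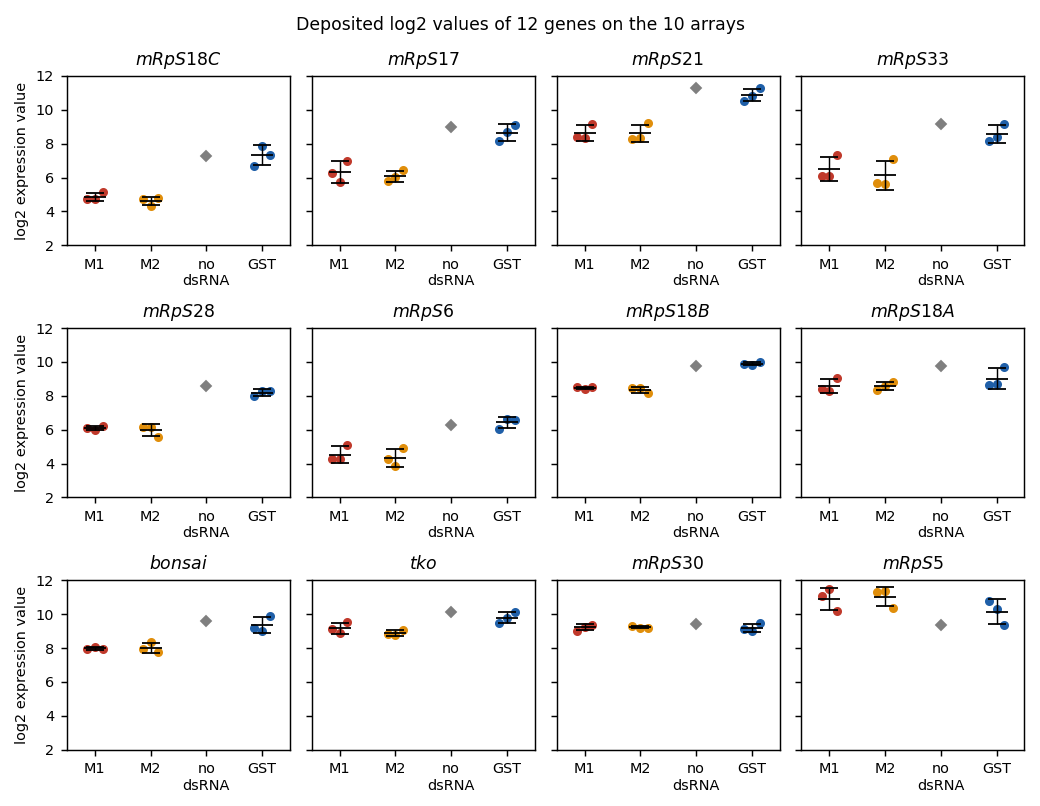
Deposited log2 expression values (y axis) of 12 small subunit genes on the 10 arrays, grouped on the x axis as M1, M2, no dsRNA and GST. Points are arrays, in the order of the replicate numbers, and horizontal bars give the mean and 1 SD of the 3 arrays of a group. mRpS18C, mRpS17, mRpS21 and mRpS28 show no overlap between knockdown and GST arrays, mRpS30 shows no separation, and mRpS5 has knockdown means clearly above its GST mean, with overlapping arrays.

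Of the 10 genes whose proteins are specific to mitochondria, 7 fell, with a median log2 fold change of -0.88 over the 10. The most changed was mRpS33, which read 6.09, 6.12 and 7.34 with M1 and 5.66, 5.59 and 7.11 with M2, against 9.18 without dsRNA and 8.18, 8.38 and 9.15 with GST. Replicate 3 was the highest of all 3 dsRNA groups, and the ranges did not meet (log2 fold change -2.25 ± 0.44, limma, adjusted p = 0.00711). mRpS18B, a relative of S18 that occupies its own place in mammalian mitoribosomes, read 8.54, 8.43 and 8.49 with M1 and 8.46, 8.48 and 8.17 with M2, against 9.77 without dsRNA and 9.87, 9.84 and 9.99 with GST. Its standard error was the smallest among the genes that fell by more than 2-fold, and 36.0% of the GST signal remained (log2 fold change -1.47 ± 0.12, limma, adjusted p = 0.000119). mRpS35 averaged 8.23 ± 0.46 with M1 and 8.18 ± 0.37 with M2, against 9.43 ± 0.31 with GST, a log2 fold change of -1.23. mRpS31 averaged 8.24 ± 0.28 with M1 and 8.33 ± 0.10 with M2, against 9.43 ± 0.15 with GST, a log2 fold change of -1.14. In mRpS35 42.7% of the GST signal remained and in mRpS31 45.4%.

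A further 3 mitochondria-specific genes fell by less than 2-fold. mRpS25 averaged 8.14 ± 0.42 with M1 and 8.14 ± 0.38 with M2, against 9.08 ± 0.49 with GST, a log2 fold change of -0.94 ± 0.28 (limma, adjusted p = 0.0428). Its adjusted p was the largest of the 19, and in limma the call was lost without any 1 of the same 6 arrays as for tko, with adjusted p between 0.0833 and 0.146. mRpS23 averaged 8.17 ± 0.21 with M1 and 8.07 ± 0.18 with M2, against 8.95 ± 0.26 with GST, a log2 fold change of -0.83. mRpS34, whose human counterpart is mutated in a mitochondrial disease of the brain, averaged 8.69 ± 0.07 with M1 and 8.61 ± 0.20 with M2, against 9.46 ± 0.10 with GST, a log2 fold change of -0.81.

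The mitochondria-specific genes that did not pass were mRpS29, mRpS26 and mRpS22. mRpS29, a GTP-binding protein that is known in mammals as DAP3, averaged 8.13 ± 0.13 with M1 and 8.19 ± 0.13 with M2, against 8.56 ± 0.22 with GST. All its knockdown arrays lay below all its GST arrays, but the log2 fold change of -0.40 ± 0.14 missed the threshold (limma, adjusted p = 0.081) and passed it with the replicate number as a block (limma, adjusted p = 0.0202). mRpS26 averaged 8.76 ± 0.52 with M1 and 8.75 ± 0.26 with M2, against 9.06 ± 0.39 with GST. mRpS22 averaged 11.03 ± 0.09 with M1 and 10.99 ± 0.13 with M2, against 11.005 ± 0.10 with GST, and its log2 fold change was 0.00 ± 0.12. The arrays of mRpS22 were close together in every group.

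mRpS18A and mRpS30 bear small subunit names, but structures of the mammalian mitoribosome place both proteins in the large subunit. Neither passed the test. mRpS18A read 8.41, 8.30 and 9.05 with M1 and 8.35, 8.58 and 8.79 with M2, against 9.75 without dsRNA and 8.64, 8.72 and 9.70 with GST. For each replicate number the knockdown arrays were below the GST array, but the third arrays were higher than the others and the groups overlapped (log2 fold change -0.44 ± 0.28, limma, adjusted p = 0.313, and 0.0489 with the replicate number as a block). mRpS30 read 9.02, 9.27 and 9.37 with M1 and 9.28, 9.20 and 9.16 with M2, against 9.43 without dsRNA and 9.13, 9.01 and 9.45 with GST. These ranges covered each other, and the log2 fold change was 0.02 ± 0.15. The S18 family of 3 genes thus held the most changed member of the set, mRpS18C, a member that fell by 1.47 on the log2 scale, mRpS18B, and 1 that did not pass, mRpS18A.

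Each construct was also set against GST by itself, which shows whether dsRNAs against different stretches of the transcript gave the same genes. Since both comparisons use the same 3 GST arrays, they are not independent. M1 lowered 16 of the 27 genes, against 16.9% of all genes, with a median log2 fold change of -0.91. M2 lowered 18, against 15.6% of all genes, with a median of -0.93. All 16 genes that fell with M1 also fell with M2. tko and mRpS16 passed with M2 but not with M1, and mRpS25 passed with neither and only in the combined comparison, but with the replicate number as a block all 3 passed with both constructs. For tko the log2 fold change was -0.62 with M1 (limma, adjusted p = 0.0969) and -0.90 with M2 (limma, adjusted p = 0.027), and for mRpS16 it was -0.61 with M1 (limma, adjusted p = 0.061) and -0.78 with M2 (limma, adjusted p = 0.0255).

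Compared directly, the constructs gave no called difference. In M2 minus M1, 0 of the 27 genes passed in limma, 0 had an unadjusted p under 0.05, and 0% of all genes tested were called, where 18 had an unadjusted p under 0.05. The smallest unadjusted p in limma among members was 0.247, for tko. The differences ran between -0.40 for mRpS33 and 0.12 for mRpS5, and 21 of 27 were below 0, as were 2511 of 5906 genes tested. The median half-width of the 95% confidence intervals was 0.55 log2 units, and 23 of 27 intervals lay within 1 unit either way. The widest bounds were -1.57 for mRpS33 and 1.21 for mRpS5. With the replicate number as a block the intervals narrowed to a median half-width of 0.35, and all 27 lay within 1 unit either way. The block left 0 genes called in limma. mRpS33 was the 1 member with an unadjusted p under 0.05, with M2 minus M1 at -0.40, an interval between -0.77 and -0.02 and a limma adjusted p = 0.999.

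**Figure D3:**
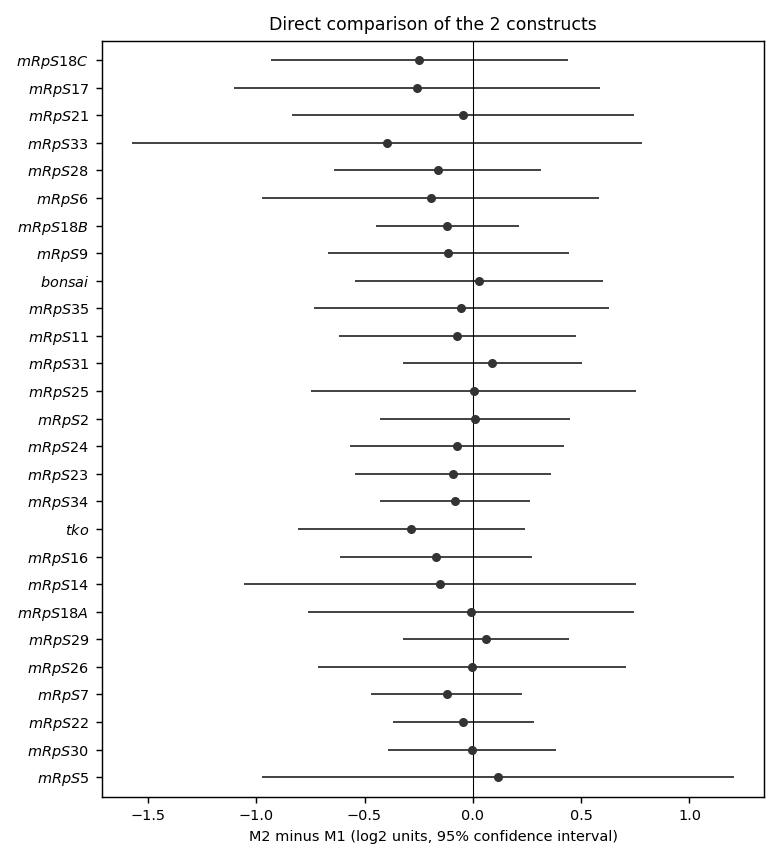
Difference M2 minus M1 without the replicate block in log2 units (x axis) for each small subunit gene, 1 row per gene, with points for the estimate and lines for the 95% confidence interval from limma. Every interval covers 0, and those of mRpS33 and mRpS5 are the widest.

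The array without dsRNA was compared with GST to see the level of these genes in cells that met no dsRNA. In no dsRNA minus GST, 0 of the 27 genes passed in limma and 0 had an unadjusted p under 0.05, while 0% of all genes tested were called and 51 had an unadjusted p under 0.05. With 1 array, its spread was taken to be that of the other groups. The differences ran between -0.79 for mRpS5 and 0.77 for mRpS14, with a median of 0.25. For 22 of the 27 genes this array was nearer to GST replicate 3 than to the mean of GST replicates 1 and 2, with a median distance of 0.06 against 0.47 log2 units. The largest distance from GST replicate 3 was 0.33, for mRpS6.

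The arrays of replicate 3 differed from those of replicates 1 and 2 in the same direction in several groups. Replicate 3 was above both other replicates in all 3 dsRNA groups for 12 of the 27 genes (44.4%), against 26.6% of all genes tested. It was below them in all 3 groups for 2 genes, mRpS11 and mRpS5 (7.41%, against 26.4%). The labels name no reason for this split, and its part in the levels was not tested. The fall was seen in both sets: the median log2 fold change of the 27 genes was -0.84 in replicates 1 and 2, where 21 genes were lower (25.1% of all genes) and 1 was higher (15.4%), and -1.09 in replicate 3, where 26 of 27 values were negative and no test was possible with 1 array of GST.

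A test of whether the knockdown effect differed between the sets called 0 of the 27 genes, against 5.38% of all genes tested. The smallest unadjusted p among members was that of bonsai, 0.00877 (limma, adjusted p = 0.0832), with a log2 fold change of -2.03 in replicate 3 and -1.04 in replicates 1 and 2. mRpS9, mRpS2 and mRpS24 leaned the same way, with log2 fold changes of -1.82, -1.28 and -1.35 in replicate 3 and -1.25, -0.72 and -0.67 in replicates 1 and 2. So did mRpS18A, with -0.78 in replicate 3 and -0.27 in replicates 1 and 2. mRpS33 leaned the other way, with -1.92 in replicate 3 and -2.42 in replicates 1 and 2. With 1 replicate 3 array per group, the test between the sets cannot show that the effects are equal.

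**Figure D4:**
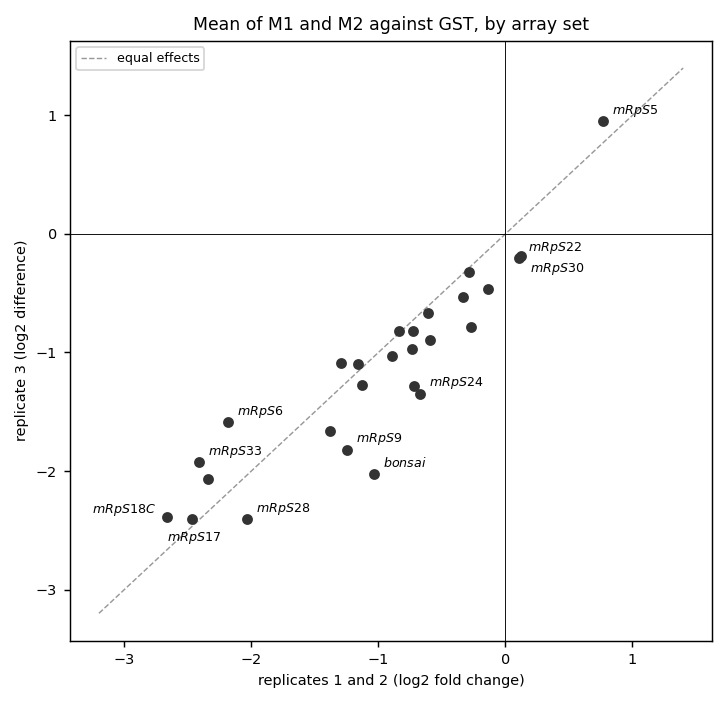
Combined log2 difference from GST in replicate 3 (y axis) against that in replicates 1 and 2 (x axis), 1 point per small subunit gene, with the dashed line of equal effects. Most genes lie to the lower left, negative in both sets, bonsai lies below the line, mRpS6 above it, and mRpS5 is positive in both.

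With the replicate number as a block, which takes out such differences between arrays, 22 of the 27 genes were lower and 1, mRpS5, was higher in limma, against 28.6% and 16.7% of all genes. For M1 by itself the block gave 21 genes lower (25.7% of all genes), and for M2 it gave 20 (24.4%). The genes gained were tko, mRpS16, mRpS25, mRpS29 and mRpS14 with M1, and mRpS25 and mRpS14 with M2, and mRpS5 was higher with each. Centring the arrays on the spike-in controls instead ended the calls. It gave 0 of 27 lower in limma (6 with an unadjusted p under 0.05), against 1.69% of all genes, at a median log2 fold change of -0.70 (-2.36 for mRpS18C), and the median standard error of the members was 0.77, against 0.21 on the deposited values. When GST replicate 2, whose spike-in median stood apart, was also left out, 13 were lower, against 15.4% of all genes. M1 replicate 1, whose spike-in median of 12.33 also stood apart in its group, was kept in that fit. The median of all genes was 0.14 under spike-in centring and -0.69 under spike-in centring without GST replicate 2, against -0.07 on the deposited values.

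The 27 genes lie on all the large chromosome arms. Those on the X chromosome, which SL2 cells as male cells upregulate by dosage compensation through MOF, were tko, mRpS25, mRpS30 and mRpS14. Of these 4, 2 fell (median log2 fold change -0.69), against 136 of 995 X-linked genes tested. Of the 23 genes on chromosomes 2 and 3, 17 fell (median -1.14), against 1035 of 4854 genes tested there. With 4 genes on the X, the difference between these shares was not tested.

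The genes of the large subunit of the same ribosome fell as well. Of 44 mRpL genes tested, 33 were lower (19.9% of all genes) and none was higher (7.38% of all genes). Their median log2 fold change was -1.18, with a range between -3.50 for mRpL2 and 0.28 for mRpL28. With the replicate number as a block, 39 were lower (28.6% of all genes). mRpL2, the counterpart of a protein near the peptidyl transferase centre in bacteria, averaged 4.75 ± 0.50 with M1 and 4.61 ± 0.13 with M2, against 8.18 ± 0.19 with GST. The small subunit genes of the cytosolic ribosome, which translates nuclear messages, were read beside them. Of 16 RpS genes with a probe set of their own, 11 were tested, none was called in either direction, none had an unadjusted p under 0.05, and their median was -0.07, the same as over all genes. Of the 11, 10 had negative fold changes, and for 4 every knockdown array lay below every GST array (24.6% of all genes). With an eBayes trend and robust fit in limma, 3 had an unadjusted p under 0.05 and none was called. The lowest group mean among these 11 was 14.75, for RpS21 with M2, near the highest values of the table, and whether array signals are compressed there was not tested.

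Of 27 genes listed for mitochondrial translation and RNA handling outside the ribosome, 24 were on the array and 21 were tested, with mIF3, mRRF1 and mRRF2 too low. Of the 21, 8 fell (19.9% of all genes did), 1 was higher (7.38% of all genes) and 12 did not pass, with a median log2 fold change of -0.35. With the replicate number as a block 11 were lower (28.6% of all genes) and 2 were higher (16.7% of all genes). The further ones were TFAM, mRF1 and mldr, which were lower, and bsf, which was higher. The 4 with the smallest adjusted p were CG1750, mTTF, mEFTu2 and MTPAP. CG1750 averaged 2.89 ± 0.34 with M1 and 2.80 ± 0.23 with M2, close to the lowest value of the table, against 5.80 ± 0.45 with GST. Its average passed the filter through the arrays without knockdown, and since the knockdown arrays lie near the floor, its fitted log2 fold change of -2.95 ± 0.24 may understate the fall. mTTF, a factor that binds mitochondrial DNA and ends transcription, had -1.94 ± 0.18, and mEFTu2, an elongation factor, had -1.83 ± 0.18. MTPAP, the mitochondrial poly(A) polymerase, had -2.04 ± 0.22. The gene that was higher was PolrMT, the mitochondrial RNA polymerase, which averaged 8.29 ± 0.52 with M1 and 8.17 ± 0.67 with M2, against 6.90 ± 0.32 with GST (log2 fold change 1.33 ± 0.33, limma, adjusted p = 0.021). Its call was lost in limma without GST replicate 1 or without GST replicate 2, with adjusted p of 0.0795 and 0.0816 in these fits. On this list 1 gene was called higher for M1 by itself, and none was for M2 by itself or with no filter.

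**Figure D5:**
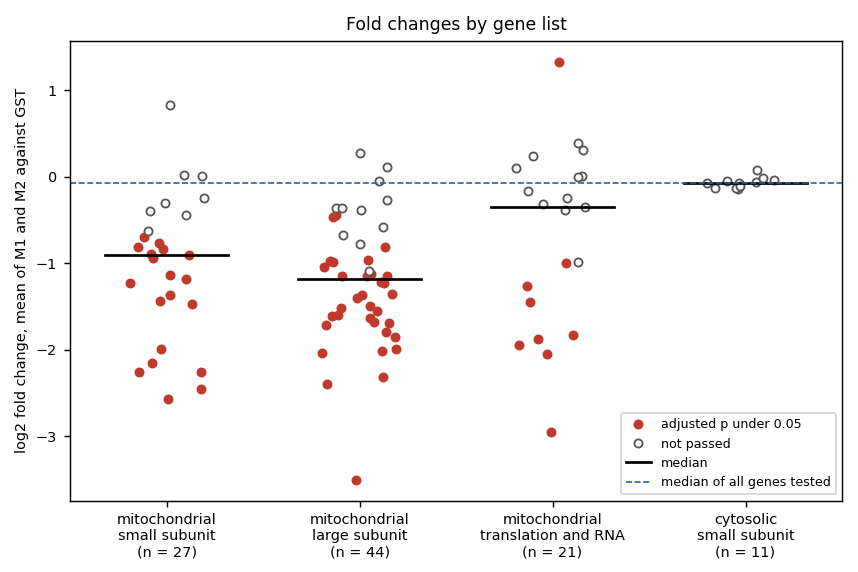
Combined log2 fold change of M1 and M2 over GST (y axis) of every tested gene in 4 lists (x axis), with filled points for genes with an adjusted p under 0.05 and open points for the others. Black bars are the medians, -0.91, -1.18, -0.35 and -0.07, and the dashed line is the median of all genes tested, -0.07. The cytosolic list forms a narrow band at the dashed line, while both mitochondrial subunits lie mostly below it.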

How the data were processed

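The deposited values are log2 expression values of 10 arrays, which the authors made with GCRMA, per the submitters' processing notes. GCRMA removes background from each probe, normalises the arrays and combines the probes of a probe set, and its version is not given in the sources used here. No further normalisation was applied for the main results. The labels' design text calls the replicates biological, and the number of arrays limits the precision. Groups follow the source names. The title of 1 array names M3 where its source name gives M2, and it was used as the third M2 replicate.

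Of 18952 probe sets, 13646 were annotated to 1 gene, 402 to several and 4721 to none, and 183 were controls. Gene names were taken from the platform annotation and updated through RefSeq Release 6, in which all 27 members matched. Control probe sets and those with a mean under 4 were left out, and limma 3.58.1 (R 4.3.3) was run on the remaining 7298, with means of the 4 groups over all 10 arrays. Python 3.11.15 and matplotlib 3.10.9 were used for summaries and figures. The two-sided p-values were adjusted by Benjamini-Hochberg across these 7298, and called at 0.05. Calls per gene rest on its brightest probe set. The script was tested on simulated data, in which the arrays varied independently and without the split of replicate 3. MBD-R2 was not analysed here.

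Members and lists were chosen with earlier results of these data known. Every member is named, and values on every array are given for the 6 called members with the most negative fold change, tko, bonsai, the S18 family, mRpS30 and members whose call differed between M1 and M2. Of the translation list the 4 called genes with the smallest adjusted p are named. The role groups follow the usual names of mitoribosomal proteins.

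The replicate numbers were checked as pairs on the deviations of arrays from their group means. Same-numbered arrays correlated between 0.34 and 0.93 in 9 pairs, arrays of replicates 1 and 2 with different numbers between 0.55 and 0.75 in 6 pairs, and arrays of replicate 3 with the others between -0.89 and -0.54 in 12 pairs. The first 2 ranges overlapped, so a pairing by number beyond the split of replicate 3 was not shown. Deviations from a group mean cancel within the group, which by itself pushes the correlations across the split towards negative values. The main fit has no block, and a blocked fit is given beside it where it changes a call. Other alternatives were quantile normalisation, centring on 18 spike-in probe sets or on the median, other filters, an eBayes trend, the compared groups alone, GST pooled with the array without dsRNA, averaged probe sets, each array left out and the array sets alone.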

Additional observations from a re-analysis of the deposited data

How the results depend on the processing

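Over 619 recomputed tests of the 27 genes, 553 kept their direction and their side of the threshold, 43 lost a call, 12 gained one and 11 changed sign. The 553 include 2 settings that could not change the combined fit, each with all 27 genes the same. They are the compared groups alone and the fit without the array without dsRNA, since a group of 1 array adds nothing to the estimated spread. Replicate 3 alone gives 27 values without a test, of which 17 moved by less than the spread between replicates, 8 moved by more and 2 changed sign. The count of genes lower in the combined comparison lay between 16 and 19 with each array left out, against 19, between 12 and 17 for M1 and between 14 and 18 for M2. Over all genes tested, the combined count lay between 907 and 1175 of 5906 in these fits. With the replicate block it was 22 of the 27 genes (28.6% of all genes). Spike-in centring gave 0 lower in the combined comparison (1.69% of all genes), 0 for M1 and 0 for M2, and 1 lower on the translation list. The median log2 fold change was then -0.70 for the 27 genes and 0.14 over all genes tested. Spike-in centring without GST replicate 2, chosen after seeing the data, gave 13 lower in the combined comparison (15.4% of all genes), 14 for M1 and 9 for M2. The median log2 fold change in this setting was -1.55 for the 27 genes and -0.69 over all genes tested. This setting kept M1 replicate 1, whose spike-in median also stood apart. The filter at a mean of 6 left 15 genes of the translation list to test, of which 5 were lower, against 831 of the 4999 genes tested in that fit. mRpS22 and mRpS30, both near 0, changed sign. mRpS22 was at -0.068 under quantile normalisation, -0.63 under spike-in centring without GST replicate 2, -0.20 in replicate 3 alone and between -0.052 and 0.050 with each array left out. mRpS30 was at -0.041 with GST pooled with the array without dsRNA, -0.66 under spike-in centring without GST replicate 2, -0.19 in replicate 3 alone and between -0.074 and 0.15 with each array left out. In limma, mRpS25 also lost its call under quantile normalisation (adjusted p = 0.0525), under median centring (0.0554) and with no filter (0.154), tko with no filter (0.0711) and mRpS24 under quantile normalisation (0.0639). A block fit in limma called mRpS14, mRpS18A and mRpS29 lower and mRpS5 higher, and changed no other member's call in the combined comparison, and those by construct and by list stand with the results.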

Other observations

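The protein-coding genes next to the small subunit genes in the RefSeq annotation were listed after the files were seen, since the annotation at hand gives no strand. They were the nearest gene on either side and any gene that overlaps a member. No limit was set on the distance, and scro, 1 of those called higher, lies 180627 bases from mRpS5. Of the 27 members, 16 overlap another protein-coding gene. Among 72 such neighbours 49 were tested, 15 were lower (30.6%) and 3 were higher, with a median log2 fold change of -0.13. Of all genes, 19.9% were lower and 7.38% were higher. Neighbours of the 19 members that fell were lower in 12 of 34 cases tested (35.3%), and neighbours of the other members in 3 of 15 (20%).

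Some overlapping pairs fell together. CG15536, which overlaps mRpS18C, had a log2 fold change of -2.84 ± 0.19, and CG14881, which overlaps mRpS33, had -2.90 ± 0.14. Probe sets of overlapping genes can share sequence, which was not checked here. Other pairs differed: Boh1, which overlaps mRpS22, had -2.21 ± 0.22 while mRpS22 itself was at 0.00, and CG9813, a neighbour of mRpS21, had 2.43 while mRpS21 fell by 2.25 on the log2 scale.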
